A study of Rattus norvegicus with 9 samples.

Results

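The 8 genes described here encode the 2 cytoplasmic actins (Actb, Actg1), 3 proteins that bind actin (Cfl1, Pfn1, Tmsb4x) and 3 tubulins (Tuba1a, Tuba1b, Tubb5). They were chosen by gene name, and all 8 were found among the 20645 genes of the authors' table and among the 12958 genes that were tested. INS-1E cells, an insulin-secreting line derived from a rat insulinoma, were given fatty acid-free BSA (the control), 0.5 mM palmitic acid (PA), or the same PA together with 50 µM cyanidin-3-O-glucoside (PA + C3G), each for 24 h. All groups share this 1 cell line, and C3G without PA was not analysed here. Polyadenylated RNA of 3 replicates per group was sequenced. The sample labels name the agents and the time, while the doses come from the methods of the study. The methods speak of biological triplicates for the experiments in general and of 3 samples per group here, and the labels do not say whether these were separate cultures. The p-values set differences between groups against the spread between these samples.

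Actin monomers assemble into filaments under the plasma membrane, and in the beta cell this cortical network lies between insulin granules and the sites where they fuse. Cofilin severs old filaments, profilin loads monomers for growth, and thymosin beta 4 holds monomers in reserve. Microtubules, hollow tubes built from pairs of alpha and beta tubulin, carry insulin granules through the cytoplasm and form the mitotic spindle. Free tubulin lowers the stability of tubulin mRNA, a known feedback on tubulin synthesis. Actb is also in wide use as a reference gene for qPCR, and the study's own primer list holds a β-actin pair.

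PA lowered all 8 genes relative to BSA, from 0.16 on the log2 scale for Actg1 to 0.98 for Tubb5. Adding C3G to PA left them on different paths. Cfl1 rose, Actg1 and Tubb5 fell further, Tuba1b was slightly higher by a call that depended on the processing, and Actb, Pfn1, Tmsb4x and Tuba1a did not pass the test.

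Levels are given in FPKM, a unit that corrects for the length of the gene model and the size of the library, so genes of different length can be set side by side. In BSA the order of the means was Actb, Actg1, Tuba1b, Tubb5, Tuba1a, Cfl1, Pfn1 and Tmsb4x, and Tuba1b and Tubb5 were the only neighbours whose libraries overlapped. Actb ranked 55 by BSA level among all genes, and Tmsb4x ranked 645. In PA the order was Actg1, Actb, Tuba1a, Tuba1b, Pfn1, Tubb5, Cfl1 and Tmsb4x. There, Actg1 and Actb overlapped each other, and the libraries of each neighbouring pair from Tuba1a down to Cfl1 overlapped as well. In PA + C3G, Actb and Actg1 stood apart again at the top, Tuba1b, Tuba1a, Cfl1 and Pfn1 overlapped from one to the next, and Tubb5 and Tmsb4x followed without overlap. The 8 genes together took 0.622% ± 0.0184 (SD, n = 3) of all FPKM in BSA, 0.444% ± 0.0123 in PA and 0.409% ± 0.00725 in PA + C3G. Ins1 and Ins2, the insulin genes, made up between 7.38% and 7.70% of all FPKM in the BSA libraries, 2.92% to 3.13% in PA and 6.94% to 7.90% in PA + C3G. Outside these insulin genes the share of the 8 was 0.672%, 0.458% and 0.441% in the same order of groups.

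The libraries held between 45559993 and 66730721 estimated counts, and the counts of the members ranged from 2091 for Tmsb4x to 72236 for Tubb5 in a library, so counting error was largest for Tmsb4x. Low counts in the table pile up at 4, with 4044 values at 4 against 2040 at 3 and 1276 at 5. Dividing all counts by 4 changed no member's call in any comparison. All 10 beta-cell markers examined had FPKM values, and their sum lay between 49084.6 and 49793.1 in BSA, 22232.5 and 22740.4 in PA, and 46647.8 and 52243.6 in PA + C3G. The insulin genes weigh heavily in this sum, as Ins1 alone averaged 24132 FPKM over the 9 libraries. In PA versus BSA, edgeR called 8 of the 10 markers lower and 0 higher, against 25.2% and 25.8% of all genes tested. With C3G added to PA, 9 were higher and 0 lower than in PA, against 11.1% and 10.2% of all genes. Against BSA, 3 of the 10 markers were lower and 3 higher in PA + C3G, where 17.9% of all genes tested were lower and 19.0% higher. The 3 stromal markers measured summed to at most 1.21 FPKM in a library, the 4 exocrine ones to 0.177, the 2 endothelial ones to 0.138 and the 3 immune ones to 0.674. Cell number and RNA per cell cannot be told apart in these bulk samples.

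**Figure D1:**
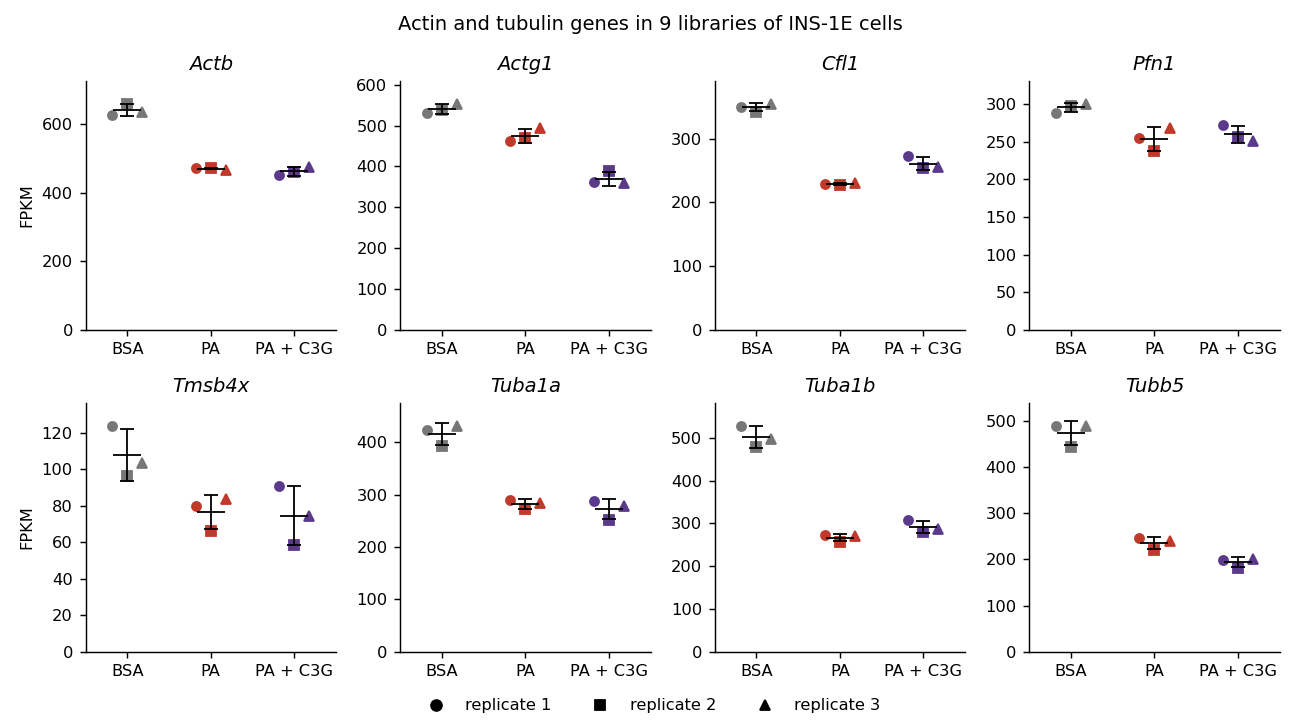
FPKM of each of the 8 genes (vertical axes, starting at 0) in the BSA, PA and PA + C3G libraries, with 1 symbol per replicate and black lines for the mean ± SD of 3. For every gene, each BSA library lay above each PA library and each PA + C3G library.

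The promoters of 4 members are shown because their transcripts parted ways under C3G, with Actg1 and Tubb5 called lower, Tuba1b called higher and Tuba1a not called. The promoter of Cfl1, also called higher, was searched but is not shown. RefSeq promoters of the rat assembly GRCr8 were matched by symbol for 7 of the 8 members. Actb had no match, so its promoter was not searched. Each line is the 160 bases before the annotated start, 5′ to 3′ on the strand of the gene, and capitals mark CCAAT, a CArG box (the site known to be bound by serum response factor, SRF) and TATATAA. These coordinates are of GRCr8 and differ from those of the authors' table.
Actg1, chr10:106120952-106121111, reverse strand: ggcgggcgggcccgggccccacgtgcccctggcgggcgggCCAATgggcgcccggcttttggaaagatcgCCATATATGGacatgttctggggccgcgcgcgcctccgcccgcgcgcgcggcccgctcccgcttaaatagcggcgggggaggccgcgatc
Tuba1a, chr7:131995820-131995979, reverse strand: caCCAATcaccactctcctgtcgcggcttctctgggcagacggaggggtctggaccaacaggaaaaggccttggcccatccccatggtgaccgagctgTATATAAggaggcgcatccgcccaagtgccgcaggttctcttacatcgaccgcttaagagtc
Tuba1b, chr7:131972588-131972747, reverse strand: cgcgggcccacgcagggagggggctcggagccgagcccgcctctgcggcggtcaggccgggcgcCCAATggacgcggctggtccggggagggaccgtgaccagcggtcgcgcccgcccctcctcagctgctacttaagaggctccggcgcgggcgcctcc
Tubb5, chr20:2917417-2917576, forward strand: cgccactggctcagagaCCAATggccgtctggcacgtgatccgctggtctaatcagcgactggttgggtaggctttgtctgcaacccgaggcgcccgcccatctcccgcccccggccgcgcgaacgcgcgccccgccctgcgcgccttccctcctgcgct
The search covered the 250 bases before the start on both strands in 33469 promoters, for CCAAT, the CArG box, TATAAA and TATATAA, the last added after the Tuba1a promoter had been read. A CArG box stood in 1.50% of these promoters and, among the 7 members, in Actg1, 90 bases before the start. CCAAT stood in 34.0% of promoters and in 5 of the 7 members, at 120 bases before the start in Actg1, 215 in Cfl1, 158 in Tuba1a, 96 in Tuba1b and 143 in Tubb5. TATATAA stood in 3.42% of promoters and in Tuba1a at 62 bases before the start, while TATAAA, found in 12.9% of promoters, was in none of the 7. These are matches of letters, not sites of binding.

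The comparison of PA with BSA asks how 24 h of the fatty acid changed these transcripts. By edgeR's quasi-likelihood test, with Benjamini-Hochberg adjustment over the 12958 genes, all 8 members were lower in PA at an adjusted p under 0.05. PA changed 51.0% of all genes tested, and 25.2% were lower, against which the count of 8 has to be read. The FPKM values of all 8 were lower in PA without overlap, as they were for 31.8% of all genes. All 8 kept this direction under each of the 19 alternatives run, and 7 of them kept the call. The exception was Tmsb4x.

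Of the actins, Actb (ENSRNOG00000034254, beta-actin, on chromosome 12 from 13715843 to 13718841, forward strand, in the authors' coordinates) stood at 627.1, 659.6 and 635.6 FPKM in BSA. It stood at 470.8, 472.7 and 467.3 in PA. All PA libraries were below all BSA libraries, and the spread within PA was small. The level fell by 26.6%, with a log2 fold change of −0.42 (SE 0.03, adjusted p = 5.73e-06 by edgeR). Actg1 (ENSRNOG00000036701, gamma-actin, chromosome 10 from 109519134 to 109520846, reverse strand) measured 530.0, 538.6 and 554.0 FPKM in BSA and 462.5, 468.7 and 493.7 in PA. The groups did not overlap, but the shift was smaller, with a log2 fold change of −0.16 (SE 0.04, adjusted p = 0.00962 by edgeR).

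The proteins are near-identical, and how reads shared by Actb, Actg1 and their processed copies were assigned could move counts between them. The log2 ratio of Actg1 to Actb within a library does not depend on library scaling. It was −0.24 ± 0.05 (SD, n = 3) in BSA and 0.01 ± 0.06 in PA, a difference of 0.26 without overlap of the groups (exact two-sided permutation test, p = 0.1, the smallest that 3 against 3 libraries allow). Actg1 made up 45.7% of the summed FPKM of the 6 actin isoforms in BSA and 50.0% in PA.

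Among the actin-binding members, Cfl1 (ENSRNOG00000020660, cofilin, chromosome 1 from 220869805 to 220873337, forward strand) showed the clearest shift. Its FPKM was 350.3, 342.7 and 355.3 in BSA and 228.4, 226.9 and 230.9 in PA. The replicates were tight and the groups far apart, with a log2 fold change of −0.59 (SE 0.04, adjusted p = 1.05e-06 by edgeR). Pfn1 (ENSRNOG00000003975, profilin, chromosome 10 from 57273005 to 57275708, reverse strand) had 288.9, 297.7 and 301.0 FPKM in BSA against 255.4, 237.9 and 268.5 in PA. Its log2 fold change was −0.20 (SE 0.05, adjusted p = 0.0078 by edgeR). Tmsb4x (ENSRNOG00000047931, thymosin beta 4, chromosome X from 28593405 to 28595395, forward strand) was the lowest and most variable member. It had 123.7, 96.4 and 103.5 FPKM in BSA and 79.9, 66.2 and 83.7 in PA, with replicate 2 lowest in both. Its log2 fold change was −0.47 (SE 0.16, adjusted p = 0.0288 by edgeR), and the call was lost without BSA replicate 1 (−0.37, adjusted p = 0.101), without PA replicate 1 (−0.51, adjusted p = 0.0503) and without PA replicate 2 (−0.38, adjusted p = 0.097).

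The tubulins fell more than the actins. Tuba1a (ENSRNOG00000060728, chromosome 7 from 140637287 to 140640953, reverse strand) went from 422.8, 392.4 and 431.3 FPKM in BSA to 290.5, 272.2 and 283.8 in PA. This was a log2 fold change of −0.53 (SE 0.06, adjusted p = 3.67e-05 by edgeR). Tuba1b (ENSRNOG00000053468, chromosome 7 from 140614752 to 140617721, reverse strand) is its neighbour, 19565 bases away, and encodes a near-identical alpha tubulin. It went from 528.1, 477.5 and 498.1 FPKM to 273.1, 256.3 and 271.7, with a log2 fold change of −0.88 (SE 0.05, adjusted p = 6.13e-07 by edgeR). Tuba1b was the higher of the pair in every BSA library and the lower in every PA library. The log2 ratio of Tuba1a to Tuba1b moved from −0.27 ± 0.06 (SD, n = 3) to 0.08 ± 0.01, a difference of 0.35 without overlap (exact permutation test, p = 0.1, the smallest possible).

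Tubb5 (ENSRNOG00000061216, the main beta tubulin of these cells, chromosome 20 from 3422461 to 3426371, forward strand) had the largest change of the 8. Its FPKM was 488.6, 444.5 and 489.7 in BSA and 247.0, 221.3 and 239.7 in PA. The level fell by 50.2%, with a log2 fold change of −0.98 (SE 0.06, adjusted p = 7.42e-07 by edgeR). Across all 9 libraries Tubb5 also varied most among the members, with a CV of 43.8%, and Pfn1 least, with 8.15%.

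**Figure D2:**
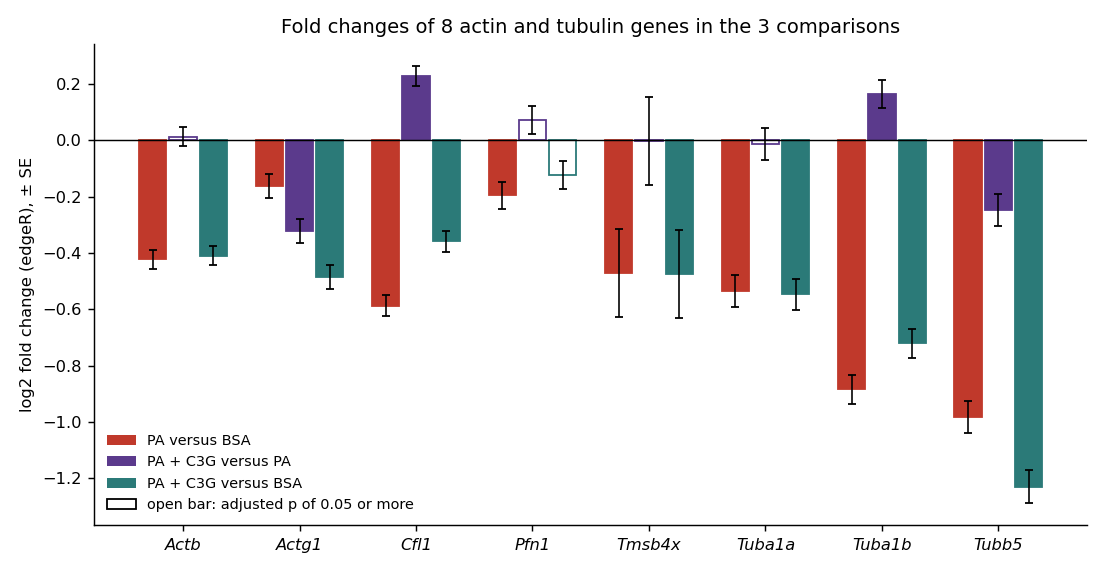
Log2 fold changes of the 8 genes from edgeR with their SE (vertical axis) in PA versus BSA (red), PA + C3G versus PA (purple) and PA + C3G versus BSA (green), with open bars for an adjusted p of 0.05 or more. The red bars run from −0.16 for Actg1 to −0.98 for Tubb5, while the purple bars point up for Cfl1 and Tuba1b and down for Actg1 and Tubb5.

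The comparison of PA + C3G with PA asks what C3G did to cells that had PA in both groups, and it shares the PA libraries with the comparison above. By edgeR's quasi-likelihood test, 4 of the 8 members were called, 2 higher and 2 lower, while 21.2% of all genes tested were called, 11.1% higher and 10.2% lower. Over all genes, edgeR called 1436 higher and 1316 lower, a split that changed to 775 higher and 2525 lower when each library was rescaled to the same FPKM sum, which moved the median over all genes to −0.09. The FPKM values of the 4 called members did not overlap between the groups, and those of the other 4 did. Over all genes tested, 39.5% did not overlap in this comparison. The count of called members lay between 2, without PA replicate 3, and 4 over the alternatives.

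Actg1 fell further, to 362.1, 390.0 and 358.8 FPKM in PA + C3G from 462.5, 468.7 and 493.7 in PA. The log2 fold change was −0.32 (SE 0.04, adjusted p = 0.00105 by edgeR), and the call held under all 19 alternatives. Actb had 450.0, 461.2 and 475.7 FPKM in PA + C3G against 470.8, 472.7 and 467.3 in PA, and the groups overlapped. Its log2 fold change was 0.01 (SE 0.03, adjusted p = 0.843 by edgeR), with a sign that depended on the setting. The log2 ratio of Actg1 to Actb was −0.32 ± 0.08 in PA + C3G (SD, n = 3), lower than in PA by −0.33 without overlap (exact permutation test, p = 0.1). Against BSA this ratio differed by −0.08 with overlapping groups (exact permutation test, p = 0.3). The mean actin total of 6 isoforms was 1185 FPKM ± 21.7 (SD, n = 3) in BSA, 949.8 ± 14.2 in PA and 835.9 ± 19.9 in PA + C3G.

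Cfl1 moved the other way, to 272.2, 254.6 and 256.3 FPKM from 228.4, 226.9 and 230.9. All PA + C3G libraries were above all PA libraries and below all BSA libraries. The log2 fold change was 0.23 (SE 0.04, adjusted p = 0.00265 by edgeR), and the call held under all 19 alternatives. Pfn1, at 272.4, 256.3 and 251.4 FPKM, overlapped with PA, with a log2 fold change of 0.07 (SE 0.05, adjusted p = 0.342 by edgeR). Tmsb4x, at 90.5, 58.3 and 74.3 FPKM, overlapped with PA as well, and replicate 2 was again the lowest. Its SE of 0.16 on the log2 scale leaves differences of that size undetectable.

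Tubb5 fell again, to 198.6, 181.4 and 201.6 FPKM from 247.0, 221.3 and 239.7. The log2 fold change was −0.25 (SE 0.06, adjusted p = 0.0149 by edgeR). The call was lost in 1 of 19 alternatives, without PA replicate 3, where the adjusted p was 0.0522. Tuba1a had 288.0, 251.1 and 278.2 FPKM in PA + C3G, overlapping with PA, and a log2 fold change of −0.01 (SE 0.06, adjusted p = 0.894 by edgeR). Tuba1b had 307.9, 279.6 and 286.6 FPKM in PA + C3G, each above the highest PA value of 273.1. Its log2 fold change was 0.16 (SE 0.05, adjusted p = 0.0457 by edgeR), and 12 of 19 alternatives lost the call, among them the rescaling to the same FPKM sum (0.07, adjusted p = 0.344). Relative to each other the 2 alpha tubulins still shifted. The log2 ratio of Tuba1a to Tuba1b was −0.10 ± 0.06 in PA + C3G (SD, n = 3), lower than in PA by −0.18 without overlap and above BSA by 0.17 without overlap (exact permutation test, p = 0.1 for each).

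Set against BSA, in a comparison that uses the same libraries again, PA + C3G left 7 of the 8 members lower, while 36.9% of all genes were called by edgeR's quasi-likelihood test, 17.9% lower and 19.0% higher. Over all genes, 2462 were higher and 2321 lower, and 1891 higher and 3039 lower after rescaling to the same FPKM sum. The log2 fold changes ran from −0.36 for Cfl1 (SE 0.04, adjusted p = 4.88e-05) to −1.23 for Tubb5 (SE 0.06, adjusted p = 4.78e-07), with −0.41 for Actb, −0.49 for Actg1, −0.55 for Tuba1a and −0.72 for Tuba1b. Tmsb4x, at −0.48 (adjusted p = 0.0378), lost its call in 5 of 19 alternatives, 4 of which left out 1 library (BSA replicate 1, BSA replicate 3, PA + C3G replicate 2 or PA + C3G replicate 3). The FPKM values of all 8 were below BSA without overlap, as were those of 31.1% of all genes. Pfn1 was not called (−0.12, SE 0.05, adjusted p = 0.0747). It was called in 5 of 19 alternatives, for example with DESeq2 (adjusted p = 0.0454).

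The remaining tubulin genes put the members in their family. Of 6 alpha tubulins measured, 4 were tested and all 4 were lower in PA, and of 8 beta tubulins 6 were tested and 5 were lower. Over all genes tested, 25.2% were lower in PA than in BSA. Tuba1c, another neighbour on chromosome 7, averaged 98.8 FPKM ± 6.16 (SD, n = 3) in BSA, 51.7 ± 2.30 in PA and 54.3 ± 5.48 in PA + C3G. Tubb4b, the next most abundant beta tubulin, averaged 172.8 ± 9.84, 84.4 ± 2.16 and 94.9 ± 4.67. Tubb4a, Tubb3 and Tubb2a, isotypes known for their expression in neurons, averaged 45.7, 30.0 and 24.3 FPKM in BSA and 21.8, 16.1 and 15.6 in PA. Tubb6 stood near 1 FPKM and was not called in any comparison.

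With C3G added to PA, 4 beta tubulins rose while Tubb5 fell, where 11.1% of all genes tested were higher and 10.2% lower. The log2 fold changes by edgeR were 0.44 for Tubb4a (SE 0.07, adjusted p = 0.00199), 0.38 for Tubb2a (SE 0.09, adjusted p = 0.0163), 0.28 for Tubb3 (SE 0.08, adjusted p = 0.0349) and 0.21 for Tubb4b (SE 0.05, adjusted p = 0.0198). Tubb4a was called under all 19 alternatives, Tubb2a was lost in 1 (without PA + C3G replicate 1), Tubb4b in 7 and Tubb3 in 11. The difference between Tubb5 and Tubb4b, a pair chosen after the values were seen, does not depend on scaling. Their ratio was 2.78, 2.75 and 2.71 in BSA, 2.88, 2.70 and 2.81 in PA, and 2.04, 2.03 and 2.06 in PA + C3G. The BSA and PA libraries overlapped (exact permutation test, p = 0.5). All PA + C3G libraries were lower than all PA libraries, with a mean difference of −0.45 on the log2 scale (exact permutation test, p = 0.1, the smallest possible). Because the pair was picked from these same values, the p-values only describe it and cannot serve as a test. Tubb5 made up 63.3% ± 0.147 of beta tubulin FPKM in BSA (SD, n = 3), 62.9% ± 0.392 in PA and 54.2% ± 0.664 in PA + C3G. The summed FPKM of alpha over beta tubulins was 1.39 ± 0.0237 in BSA, 1.66 ± 0.0319 in PA and 1.80 ± 0.0498 in PA + C3G, with no overlap between the groups.

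**Figure D3:**
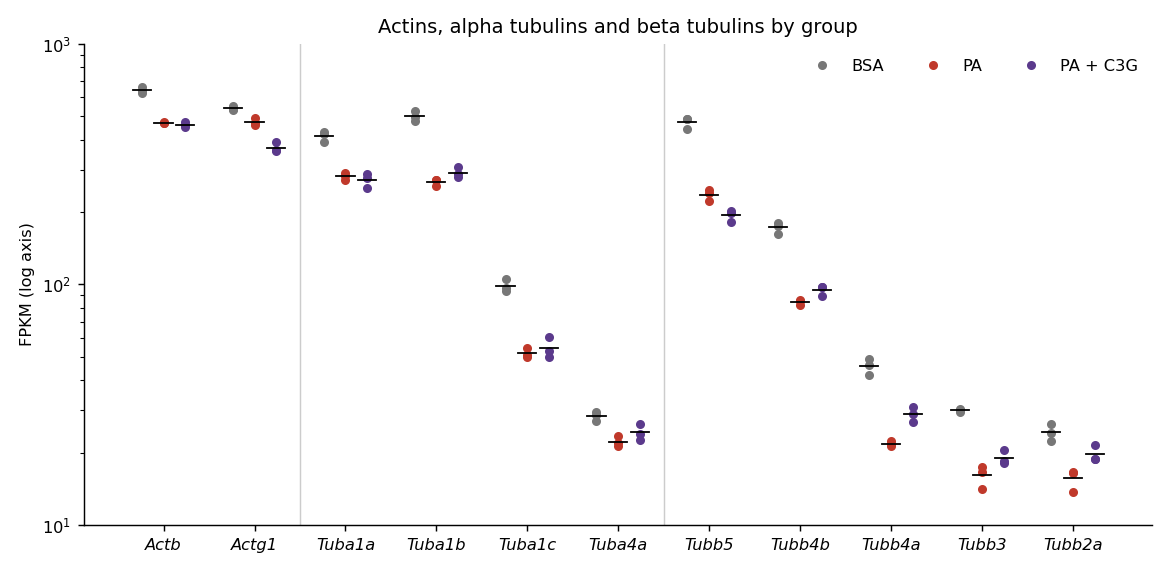
FPKM on a log axis of 2 actins, 4 alpha tubulins and 5 beta tubulins in each library (points) with the group mean (black lines), for BSA (grey), PA (red) and PA + C3G (purple). Tubb4b, Tubb4a, Tubb3 and Tubb2a lay higher in PA + C3G than in PA, while Tubb5 lay lower, at 193.9 against 236.0 FPKM on average.

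The other actin isoforms were scarce. Acta1, the skeletal muscle form, averaged 2.28 FPKM in BSA, 2.84 in PA and 2.03 in PA + C3G and was not called in any comparison. Actc1, the cardiac form, was higher in PA than in BSA, at 1.72 ± 0.207 against 1.01 ± 0.0486 FPKM (log2 fold change 0.78, SE 0.20, adjusted p = 0.00819 by edgeR).

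Genes that act on actin were compared as a wider background, from lists chosen with earlier results of these data known. Leaving out the members, 70 genes of the actin side were tested, among them Acta1 and Actc1. In PA, 31 were lower and 7 higher than in BSA, and the median change was −0.15 on the log2 scale, while over all genes 25.2% were lower, 25.8% were higher and the median was 0.003. In PA + C3G against PA, 12 were higher and 4 lower, with a median of 0.07 against −0.0007 over all genes, of which 11.1% were higher and 10.2% lower. Of the 21 turnover genes tested, which include Cfl1, Pfn1 and Tmsb4x, 12 (57.1%) were lower in PA and 2 higher. Coro1c, a coronin, fell by 0.55 on the log2 scale and Capza1, a subunit of capping protein, by 0.38, while Coro1b, another coronin, rose by 0.28. Of 24 nucleation genes, 11 (45.8%) were lower and 2 higher in PA. Arpc3 and Arpc5, subunits of the Arp2/3 complex that starts branched filaments, fell by 0.44 and 0.27 in PA and rose by 0.33 and 0.25 when C3G was added, whereas Actr3 of the same complex fell by 0.20 with C3G.

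Of 23 crosslinkers and myosins, 10 (43.5%) were lower and 2 higher in PA, against 25.2% and 25.8% of all genes. With C3G added to PA, 7 (30.4%) were higher and 3 (13.0%) lower, against 11.1% and 10.2% of all genes. Vil1, the bundling protein villin, averaged 36.9 FPKM in BSA, 18.4 in PA and 27.0 in PA + C3G. Tln1, talin, which links actin to integrins, went the opposite way, at 25.8, 35.7 and 28.6 FPKM, and passed the test in each of the 3 comparisons. SRF is known to respond to free actin through its coactivators, and actin genes are among its targets. The SRF list used here holds no actin gene, and 7 of its 13 measured genes averaged 1 FPKM or more and were tested. Of these 7, Flna (filamin A, −0.70) and Mrtfa (−0.22) were lower in PA. This share of 28.6% is close to the 25.2% of all genes. With C3G added to PA, 0 of the 7 passed edgeR's test, 0 had an unadjusted p under 0.05, and 0 passed with DESeq2 or limma. These counts leave out the actins, of which Actg1 was called lower by edgeR in that comparison (−0.32).

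Among genes that act on tubulin, 43 were tested without the members, and 23 were lower and 7 higher in PA, the median change being −0.24 on the log2 scale, while 25.2% of all genes were lower. In PA + C3G against PA, 11 (25.6%) were higher and 1 (2.33%) lower, with a median of 0.06. Over all genes tested, 11.1% were higher and 10.2% lower in that comparison, with a median of −0.0007. These 43 include the 7 tested alpha and beta tubulins that are not members. Of 12 genes for gamma tubulin, its complex and related tubulins, 9 were lower in PA and 1 higher. Nedd1, which recruits the gamma tubulin complex to the spindle, averaged 7.00 FPKM in BSA, 2.70 in PA and 3.43 in PA + C3G. Of 24 genes of microtubule dynamics, 8 (33.3%) were lower in PA and 6 (25.0%) higher, near the 25.2% and 25.8% of all genes. Ckap5, a microtubule polymerase, fell by 0.82 on the log2 scale and Stmn1, the tubulin-binding protein stathmin, by 0.95, while the kinesin gene Kif1a rose by 0.51.

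Actin and tubulin both fold in the chaperonin CCT, which receives them from prefoldin. Of 21 folding genes tested, 7 (33.3%) were lower and 2 higher in PA, and with 42.9% called in all the list stayed below the 51.0% of all genes. With C3G added, 4 (19.0%) were lower, against 10.2% of all genes, and the other 17 did not pass the test. Tcp1 and Cct6a, both CCT subunits, fell in PA by 0.46 and 0.41 on the log2 scale. Cct5 had 168.6, 174.5 and 173.9 FPKM in PA and 133.2, 141.0 and 135.2 in PA + C3G, a log2 fold change of −0.30 (SE 0.04, adjusted p = 0.000662 by edgeR) without overlap. Cct4 was higher in PA than in BSA (0.19) and fell when C3G was added to PA (−0.27). Cct2 was lower with C3G too (−0.18), and that call was lost without PA replicate 3 and without PA + C3G replicate 1.

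**Figure D4:**
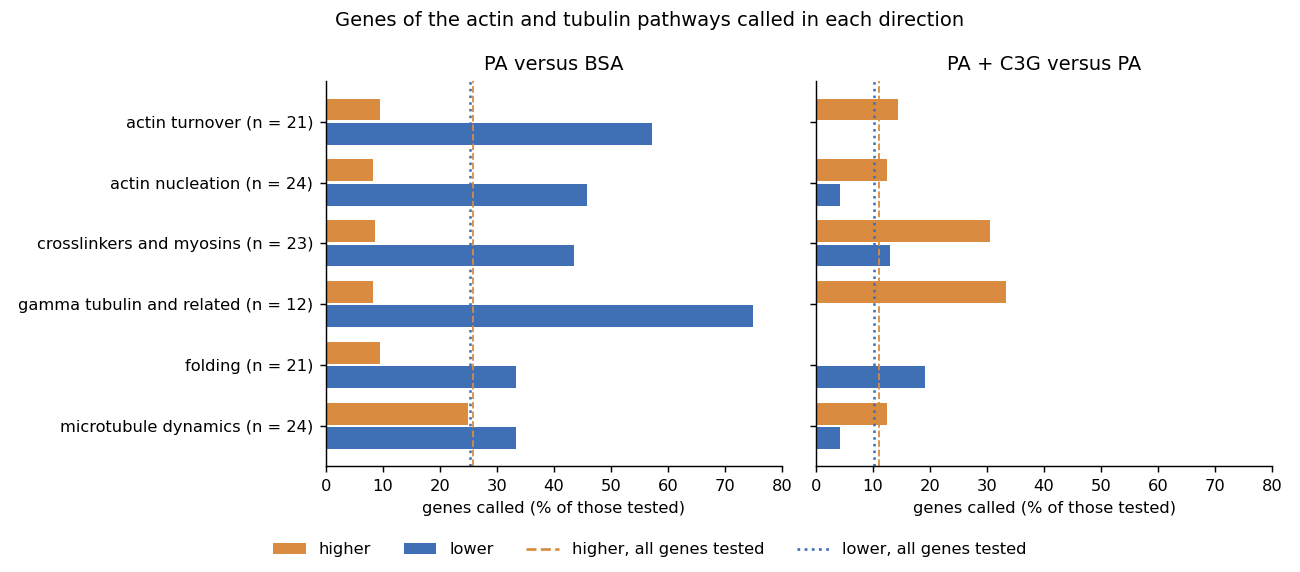
Share of the tested genes of 6 lists called higher (orange) or lower (blue) by edgeR in PA versus BSA and in PA + C3G versus PA, in percent, with vertical lines for the same shares over all 12958 genes. In PA the blue bars of all 6 lists pass the line at 25.2%, and with C3G the folding list holds 4 lower genes of 21.

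Actb was compared with other genes in common use as qPCR references, and 13 genes of this list, Actb included, had values. Relative to BSA, PA raised 5 and lowered 7 of the 13, Actb among the lower, which is 92.3% called against 51.0% of all genes. With C3G added, 3 were higher and 3 lower than in PA, or 46.2% called against 21.2% of all genes. Actb varied with a CV of 16.8% over the 9 libraries, its highest value being 1.47 times its lowest. Over the 13 genes the CV ran from 11.0% for Rplp0, a ribosomal protein gene, to 39.0% for Tfrc, the transferrin receptor. Ppia, cyclophilin A, averaged 1092 FPKM ± 10.2 (SD, n = 3) in BSA, 557.3 ± 29.6 in PA and 705.0 ± 41.7 in PA + C3G. B2m, beta-2-microglobulin, averaged 69.0 ± 3.24, 129.4 ± 4.51 and 117.0 ± 9.98. Tbp was the gene of this list not called by edgeR in PA versus BSA, with a log2 fold change of −0.17 (SE 0.08, adjusted p = 0.107). With limma on log2(FPKM + 1) all 13 were called in this comparison, Tbp included.

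**Figure D5:**
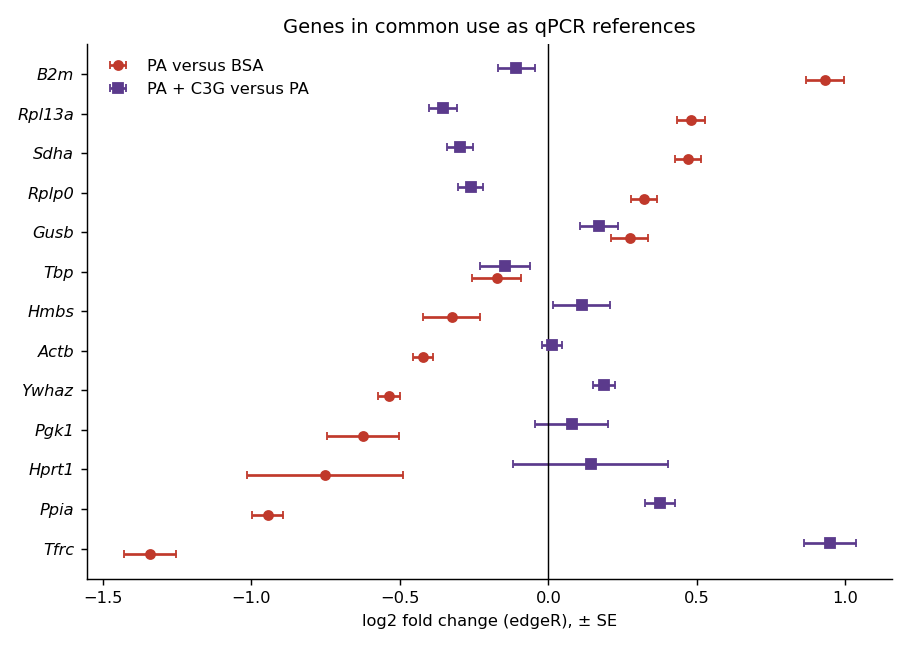
Log2 fold changes with SE from edgeR for 13 reference genes (rows) in PA versus BSA (red circles) and PA + C3G versus PA (purple squares). The red circles run from −1.34 for Tfrc to 0.93 for B2m, with Actb at −0.42.

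The genes whose patterns were most like each member were found from the root mean square difference between centred log2(FPKM + 1) profiles over the 9 libraries, as a description. For Actb they were Aff1 (difference 0.022), Washc4 (0.026) and Apba2 (0.030), and for Actg1 they were Bclaf3, Trim37 and Cwf19l1, at 0.054 to 0.055. Cfl1 was most like Ywhaz (0.031), itself a reference gene, Tpm3 (0.031), a tropomyosin, and Sdk2. Pfn1 was most like Psmb6 (0.022), Cdc123 and Slc50a1, and Tmsb4x was most like S100a10 (0.099), Ptprv and Fam110a. For Tuba1a they were Fubp1 (0.044), Ube2s and Shmt1, and for Tuba1b they were Bag3 (0.032), Nasp and Rfc4. Tubb5 was most like Kif20a (0.069), which averaged 33.2 FPKM in BSA, 16.3 in PA and 13.0 in PA + C3G, followed by Hspa12a and Aspm. No member was among the 3 most like another.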

How the data were processed

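Polyadenylated RNA from 9 INS-1E samples was sequenced as paired ends from dUTP-marked libraries. The authors deposited 1 table with estimated counts per gene, not normalized, and FPKM, the same quantification scaled to gene length and mapped fragments. The submitters' processing notes name cutadapt 1.9, HISAT2 2.0.4, StringTie 1.3.4d, DESeq2 and edgeR, without roles, and the genome build is not given in the sources used here. Whether counting used the strand, and how reads matching several genes were assigned, is not stated either, which matters for near-identical actins and tubulins. Positions are those of the authors' table.

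Counts were compared with edgeR 4.0.16 (R 4.3.3; TMM, quasi-likelihood test, all 9 libraries in 1 fit, Benjamini-Hochberg adjustment, threshold 0.05) for 12958 genes that averaged 1 FPKM or more. Ratios of 2 genes were compared on the log2 scale by exact permutation tests. Groups come from the sample labels. Alternatives were DESeq2 1.42.0, limma 3.58.1 on log2(FPKM + 1) and log2(FPKM + 0.1), median-ratio factors, equal FPKM sums, testing every gene, a filter at 5 FPKM, fits of 2 groups alone, the replicate number as a block, each library left out and, added after the data were seen, counts divided by 4. The procedure was tested on simulated data. The members and gene lists were chosen with earlier results of these data known. Genes named are the members, the actin and tubulin isotypes, the reference genes, up to 3 per list, direction and comparison by p-value, and the 3 most like each member. Not every gene so chosen is discussed. Some list genes are not reported here, those without a value are not analysed here, nor are the qPCR, Western blot and secretion data.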

Additional observations from a re-analysis of the deposited data

How the results depend on the processing

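Over 19 alternatives, the number of members called lay between 7 and 8 for PA versus BSA and between 6 and 8 for PA + C3G versus BSA. For PA + C3G versus PA it was 4 as reported and between 2 and 4 over the alternatives, and Tuba1b was the member lost with median-ratio factors, equal FPKM sums, both limma settings, no filter and fits of 2 groups alone (3 called). Leaving out 1 library at a time gave 2 to 4, the 2 coming without PA replicate 3. Directions turned only for members not called in PA + C3G versus PA. Actb went from 0.01 to −0.0769 with equal FPKM sums and to −0.0249 or −0.0250 with limma at a pseudocount of 1 or 0.1, and Pfn1 went from 0.07 to −0.0181 with equal FPKM sums. Leaving out 1 library at a time, Actb ranged from −0.0095 to 0.0274, Tmsb4x from −0.1761 to 0.1426 and Tuba1a from −0.0593 to 0.0394. The cause was not tested. All 72 alternative values of the 9 ratio comparisons kept their direction. Those of the replicate block equal the reported values by arithmetic and could not turn.

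Same-numbered libraries deviated together weakly or not at all (correlations across genes of −0.0918 to 0.0796), so the numbers were not taken as pairs. In PA + C3G versus PA these correlations were 0.0796, 0.0254 and 0.0585, and those of differently numbered libraries ran from −0.0722 to 0.0103. There the replicate block raised the genes called from 2752 to 3118. It raised them in the other comparisons too, from 6614 to 6843 in PA versus BSA and from 4783 to 5058 in PA + C3G versus BSA. A weak pairing is not excluded. With the replicate block, 8, 4 and 7 members were called in PA versus BSA, PA + C3G versus PA and PA + C3G versus BSA, as without it. The block cannot change the ratio differences (0.26, −0.33 and −0.08 for Actg1 to Actb, 0.35, −0.18 and 0.17 for Tuba1a to Tuba1b). A mean of paired differences equals the difference of the group means, so these values say nothing about pairing. With 3 libraries a group, changes near the SE of Tmsb4x could not be resolved, and no exact permutation test could go below 0.1.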

Other observations

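A pair of genes that act on tubulin had libraries far apart within a group. Hdac6, which removes acetyl groups from alpha tubulin, was listed at 0 FPKM in all 3 BSA libraries. It had 1.51, 1.53 and 3.49 FPKM in the PA libraries and 3.30, 3.33 and 0.236 in the PA + C3G libraries. Tbcb, a tubulin folding cofactor, had 8.97, 19.7 and 21.0 FPKM in BSA, 28.9, 30.6 and 28.8 in PA, and 14.2, 21.6 and 0 in PA + C3G.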
